A study of Mus musculus with 6 samples.

Results

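The replication-dependent histone cluster genes were taken as every gene whose name starts with Hist1h, Hist2h, Hist3h or Hist4h, which gave 71 of the 46983 genes measured. They carry 70 names, since Hist2h2bb is listed once as a protein-coding gene and once as a long noncoding RNA, and 68 of the 71 are annotated as protein-coding. Of these, 56 belong to the Hist1 cluster on chromosome 13, 11 to Hist2 on chromosome 3, 3 to Hist3 on chromosome 11 and 1 to Hist4 on chromosome 6 (mouse build mm10). By type, 6 encode the linker histone H1, 20 encode H2A, 20 H2B, 12 H3 and 13 H4. A single exon was annotated for 65 of the 71. Hist1h2aa had no read in any library, and 66 members passed the filter on low values used for testing (an RPKM of at least 0.1 in at least 3 libraries). The other 5 had at most 8 reads in any library.

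Core histones H2A, H2B, H3 and H4 form the octamer around which DNA is wrapped, and H1 binds the DNA between octamers. The clustered genes are transcribed mainly in S phase, when replicated DNA must be packaged, and most of their mRNAs end in a conserved stem-loop rather than a poly(A) tail. Some members can in addition produce longer, spliced or polyadenylated transcripts, which are known from cells that have left the cell cycle. Variant histones such as H3.3 are encoded outside these clusters and are made throughout the cell cycle.

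Aortic valves came from wild type C57BL/6J mice of 2 ages, postnatal day 2 (PND2) and 4 months. RNA-seq gave 3 libraries for each, and every library pools the valves of 5 to 6 animals. No treatment was given, and both ages carry the same genotype. Libraries were made with an mRNA kit, and if RNA was captured by its poly(A) tail, as such kits do, the values count histone transcripts without a tail only in part. Library totals, worked out from RPKM times exon length with the smallest product taken as a single read, ran from 23810507 to 38994657. Values are RPKM, read counts divided by exon length and library total. The labelled tissue was checked against its markers. All 8 valve interstitial genes were present, with a summed RPKM of 6564 to 7250 at PND2 and 8032 to 10140 at 4 months. All 7 valve endothelial genes were present too (342 to 464 against 206 to 225). Genes of cardiomyocytes were also high, with a summed RPKM of 17292 to 19930 over 8 genes at PND2 and 6912 to 10607 at 4 months.

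Members resemble each other closely, so a short read can fit several of them. A stretch of 47 bases, the length of the trimmed first mate, was compared across all members and all other annotated transcripts (GENCODE M21, build GRCm38, the same as mm10). The stretch of the Hist1h2bc coding exon held by the most other members is shown because it was found without a mismatch in 14 of them, namely the other 14 H2B genes of Hist1. It is followed by the closest stretches of the H2B genes of the other clusters that are protein-coding and above the low-value filter, with their mismatches in capitals.
Hist1h2bc and 14 others, chr13:23684505-23684551, plus strand in Hist1h2bc: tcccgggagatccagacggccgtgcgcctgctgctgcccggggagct
Hist3h2ba, chr11:58949213-58949259, plus strand: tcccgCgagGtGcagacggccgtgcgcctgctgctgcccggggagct
Hist2h2be, chr3:96221439-96221485, plus strand: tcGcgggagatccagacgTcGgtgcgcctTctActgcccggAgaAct
Hist3h2ba differed at 3 of the 47 bases and Hist2h2be at 7. A 47-base stretch is called distinct here when no other member holds it within 2 mismatches and no other annotated gene holds it exactly. Distinct stretches made up under 50% of 54 of the 71 members and under 10% of 30. Reads summed over genes exceeded the library totals, which were themselves worked out from the RPKM values, in every library. They came to 90673545 against 38994657 in PND2 replicate 1 and 55069102 against 23810507 in 4 month replicate 2. The reads and sums quoted here can therefore include reads counted more than once. Whether this lay in reads counted at more than 1 gene, or more than once within a gene, was not tested. For members with few distinct stretches, it is uncertain which copy the reads came from.

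The mark of a replication-dependent histone mRNA, the 3′ stem-loop, was looked for in the annotated transcripts as a stem of 6 bases that starts with GG, a loop of 4 bases that starts with TT, and the exact reverse complement of the stem. It was found in 44 of the 71 members (4 of 6 H1, 11 of 20 H2A, 10 of 20 H2B, 8 of 12 H3 and 11 of 13 H4) and in 0.334% of 55450 annotated genes. Annotated transcripts that stop at the coding end cannot contain it. The 6 forms are shown with the paired stem in capitals, since the form differed by type.
26 members of types H1, H2A, H2B and H3: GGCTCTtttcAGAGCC
7 H4 members (Hist1h4c, h4d, h4f, h4h, h4m, h4n and Hist4h4): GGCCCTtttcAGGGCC
6 members (Hist1h1t, Hist1h2bb, Hist1h2bk, Hist1h3c, h3e and h3f): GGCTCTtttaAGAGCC
Hist1h4i and Hist2h4: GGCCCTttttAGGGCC
Hist1h4b and Hist1h4j: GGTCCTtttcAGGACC
Hist2h2ac: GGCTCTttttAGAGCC
Several annotated transcripts ran on past the stem-loop, by 840 bases in Hist1h1c, 169 in Hist3h2ba, 1643 in Hist3h2a and 35 in Hist2h2aa1 and Hist2h2aa2. None was found in the annotated transcripts of Hist1h2bc and Hist2h2be, among the most abundant H2B genes in these libraries.

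Promoters, taken as 250 bases before to 50 after the start in RefSeq (GRCm38.p6), were matched for 62 members. CCAAT, in either direction, was present in 53 of the 62 (85.5%) against 41.1% of all 27025 genes with a promoter, and in 3 of 12 H4 genes. TATAAA was present in 56.5% of members against 15.7% of genes. The octamer ATTTGCAT was present in 7 of 18 H2A and 7 of 16 H2B genes and in none of the H1, H3 and H4 promoters (22.6% of members, 1.97% of genes). AAACACA, an element known from H1 promoters, was present in 5 of 6 H1 genes (14.5% of members, 8.22% of genes). Both strands were searched, and overlap between matches of different motifs was allowed. A promoter each is shown for the leading H1 gene, an abundant H2B gene that rose, the H2A gene that lies head to head with Hist1h2bc, and the 2 members that fell, with every match in capitals.
Hist1h1c, chr13:23738557-23738856, plus strand: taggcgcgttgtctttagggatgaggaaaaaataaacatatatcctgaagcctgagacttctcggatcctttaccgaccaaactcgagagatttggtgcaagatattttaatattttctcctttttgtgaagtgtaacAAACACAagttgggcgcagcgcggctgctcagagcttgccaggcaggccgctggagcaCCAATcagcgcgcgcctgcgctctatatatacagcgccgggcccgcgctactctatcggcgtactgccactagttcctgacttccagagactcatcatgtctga
Hist1h2bg, chr13:23571150-23571449, plus strand: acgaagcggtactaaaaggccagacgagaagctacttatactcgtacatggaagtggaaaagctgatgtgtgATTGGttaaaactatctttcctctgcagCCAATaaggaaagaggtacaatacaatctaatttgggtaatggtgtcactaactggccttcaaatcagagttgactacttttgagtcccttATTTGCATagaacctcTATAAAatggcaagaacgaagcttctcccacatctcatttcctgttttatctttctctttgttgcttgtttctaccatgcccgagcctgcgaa
Hist1h2ac, chr13:23683910-23684209, minus strand: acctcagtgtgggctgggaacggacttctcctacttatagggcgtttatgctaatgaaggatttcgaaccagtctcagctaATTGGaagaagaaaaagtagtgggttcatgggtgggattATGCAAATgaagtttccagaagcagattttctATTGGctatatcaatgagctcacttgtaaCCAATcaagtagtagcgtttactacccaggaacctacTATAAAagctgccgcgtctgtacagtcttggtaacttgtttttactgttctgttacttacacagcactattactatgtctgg
Hist3h2ba, chr11:58948661-58948960, plus strand: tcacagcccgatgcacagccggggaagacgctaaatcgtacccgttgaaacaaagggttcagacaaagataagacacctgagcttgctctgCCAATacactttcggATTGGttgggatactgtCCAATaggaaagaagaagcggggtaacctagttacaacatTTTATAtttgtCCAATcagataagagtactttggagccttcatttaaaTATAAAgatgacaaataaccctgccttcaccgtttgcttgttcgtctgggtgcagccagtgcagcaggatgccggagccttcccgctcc
Hist1h4d, chr13:23581318-23581617, plus strand: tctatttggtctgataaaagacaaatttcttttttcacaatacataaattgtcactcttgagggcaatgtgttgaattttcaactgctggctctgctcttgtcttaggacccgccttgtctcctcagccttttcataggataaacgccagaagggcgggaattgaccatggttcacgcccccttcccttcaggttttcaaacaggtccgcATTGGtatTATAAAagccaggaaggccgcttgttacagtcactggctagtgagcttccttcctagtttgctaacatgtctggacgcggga
The promoter of Hist3h2ba, which fell, held 4 CCAAT and 2 TATAAA matches, and that of Hist1h2bg, which rose, held 2 and 1 with 1 octamer. Counts varied within each direction. Hist1h4d, which fell, held 1 CCAAT and 1 TATAAA. Of genes that rose, Hist1h2bj held 5 CCAAT and no octamer, and Hist1h2bm 3 CCAAT and 1 octamer. Whether match counts go with the direction of change was not tested. These matches are letters in a window and were not tested as sites.

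The first question was how much histone mRNA was measured at each age. Summed over all 71 members, the RPKM was 275, 282 and 341 in the PND2 libraries and 614, 578 and 700 in the 4 month libraries. Each 4 month library lay above each PND2 library, and the means were 299 ± 36.1 and 631 ± 62.4 (SD, n = 3), a ratio of 2.11. The summed level was thus higher in the older valves. With members of near-identical reads counted once, the means were 264 ± 28.4 and 567 ± 61.1 and the ratio was 2.15. No test is given for sums over chosen members.

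**Figure D1:**
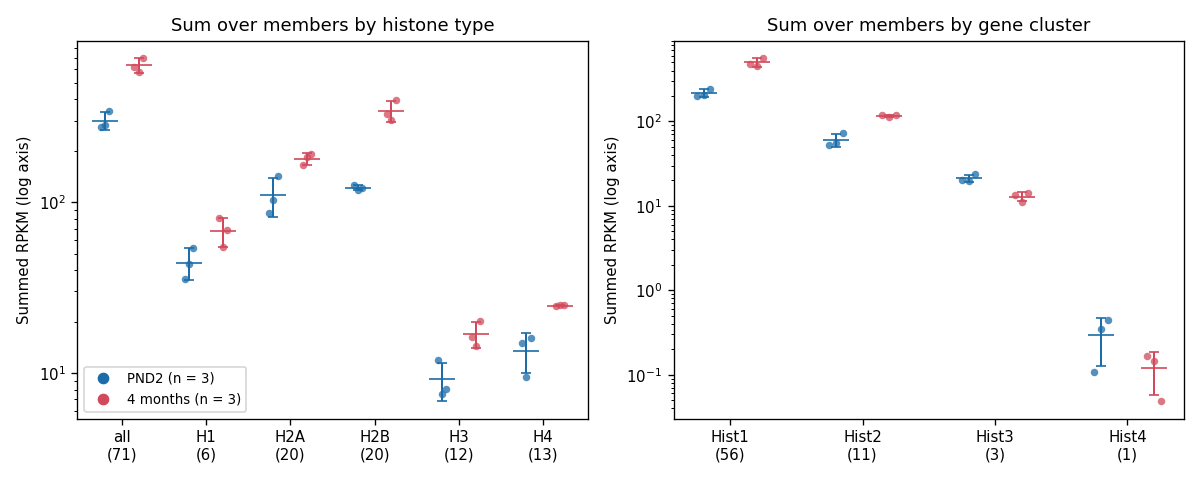
Summed RPKM (log axis) over the histone cluster genes by type (left) and by gene cluster (right), with the number of members in brackets; points are the 3 libraries of each age and bars the mean ± SD. The 4 month libraries lie above the PND2 libraries in every type and in Hist1 and Hist2, below them in Hist3, and overlap them in Hist4.

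By type, H2B had the largest ratio of summed RPKM, at 2.81. It went from 126, 118 and 120 at PND2 to 328, 302 and 396 at 4 months. The ratio was 1.84 for H3 and for H4, 1.62 for H2A and 1.53 for H1. H2B made up 35.3 to 45.9% of the summed histone RPKM at PND2 and 52.2 to 56.5% at 4 months, without overlap. H3 made up 2.37 to 4.31% and H4 3.36 to 5.44% of the sum across the 6 libraries. By cluster, the ratio was 2.30 for Hist1 and 1.94 for Hist2, while it was 0.606 for Hist3 (20.1, 19.8 and 23.7 against 13.3, 11.1 and 14.2) and 0.407 for Hist4, whose single gene overlapped between the ages. The 2 small clusters thus lay the other way from the 2 large ones.

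By mean RPKM, Hist1h2bc and Hist1h1c held the largest shares of the sum at both ages. Hist1h2bc alone held 13.7 to 16.3% of it at PND2 and 22.4 to 23.2% at 4 months. Without Hist1h2bc, the sum over the remaining members was 255 ± 34.4 at PND2 and 487 ± 49.4 at 4 months (ratio 1.91). This sum is not free of Hist1h2bc, because other H2B genes share stretches with it and reads of Hist1h2bc can be part of their values. The linker histone gene Hist1h1c held 11.8 to 15.0% and 8.87 to 12.3%. By contrast, 16 members had at least 50 reads in every library.

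**Figure D2:**
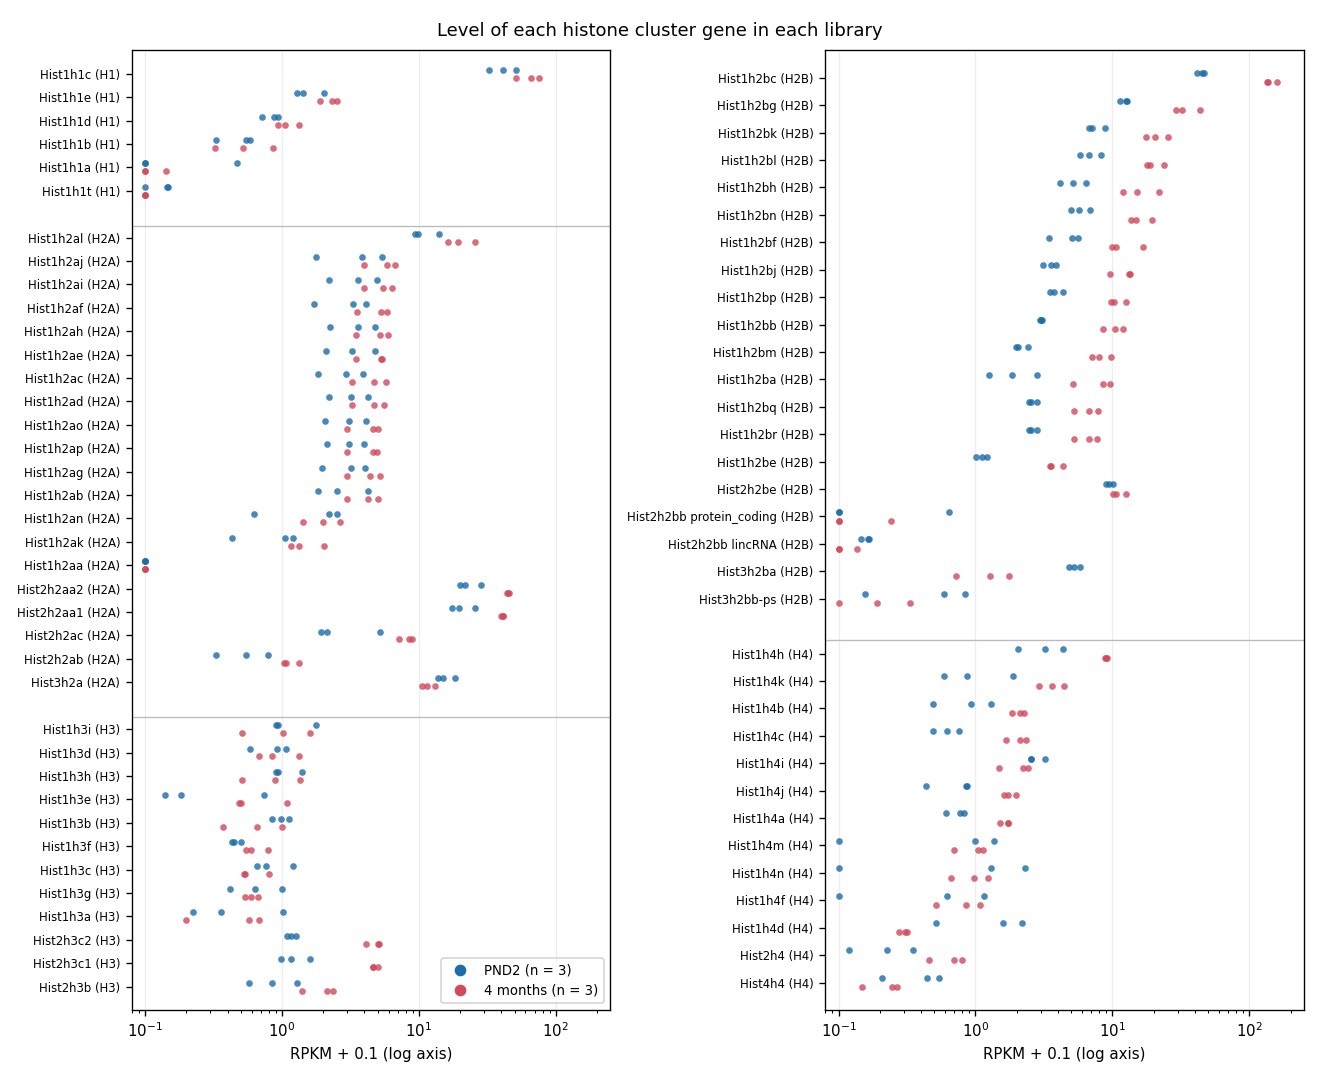
Level of each of the 71 histone cluster genes in each library, as RPKM + 0.1 on a log axis, with H1, H2A and H3 genes on the left and H2B and H4 genes on the right. Hist1h2bc has the highest mean at both ages, with 41.7 to 46.5 RPKM at PND2 and 134 to 159 at 4 months, although Hist1h1c reaches 51.2 in 1 PND2 library, and the ages do not overlap in any of the 15 Hist1 H2B genes.

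Tests of single members used limma, fitted to log2(RPKM + 0.1) across all 25903 genes that passed the filter, with Benjamini-Hochberg adjustment over all of them. Fold changes below are on this scale, as 4 months minus PND2, and it understates the change of low genes. Of the 66 members tested, 30 (45.5%) were called higher at 4 months at an adjusted p under 0.05, against 14.7% of all genes tested. Only 2 (3.03%) were called lower, Hist3h2ba and Hist1h4d, against 21.1% of all genes. The median log2 fold change was 0.85 over the members and −0.14 over all genes. Scaling each library to its median moved the median of all genes by 0.12, to −0.02, and put 47.3% rather than 58.9% of all calls on the lower side. With this scaling 31 members were called higher and 2 lower, against 17.8% and 15.9% of all genes tested. Values did not overlap between ages for 34 members that were higher and 4 that were lower at 4 months, against 20.0% and 29.9% of all genes tested. Since near copies can share reads, the called members are not independent of each other.

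**Figure D3:**
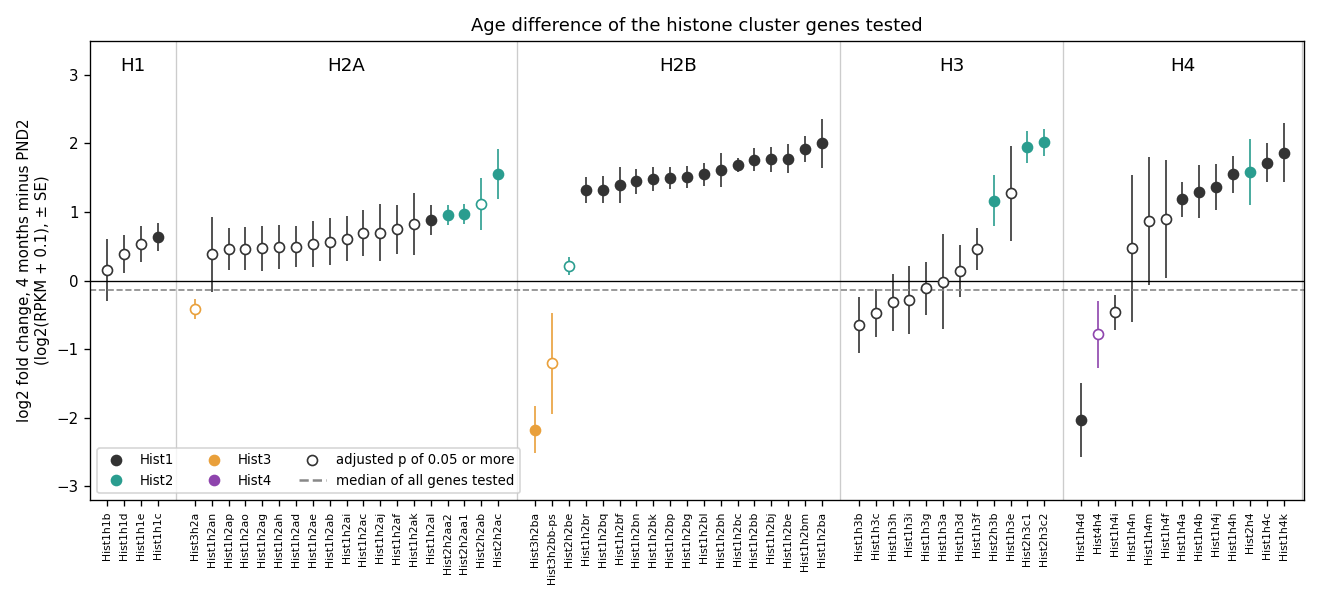
Log2 fold change (4 months minus PND2, on log2(RPKM + 0.1), ± SE) of the 66 histone cluster genes tested, ordered within each type and coloured by cluster; filled points have an adjusted p under 0.05 and the dashed line is the median of all genes, −0.14. All 15 Hist1 H2B genes lie between 1.33 and 2.00, whereas the Hist1 H3 genes lie on both sides of 0 and the 3 Hist3 genes below it.

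Among the 6 clustered H1 genes, Hist1h1c (H1.2) supplied 91.0 to 94.9% of the summed RPKM. The linker histone genes H1f0 and H1fx lie outside the clusters, are not part of this sum and are given below with the variants. Hist1h1c (chr13:23738808-23740367) was at 32.3, 41.0 and 51.2 RPKM at PND2 and 75.8, 51.3 and 65.2 at 4 months. The lowest 4 month library lay just above the highest PND2 library. It rose by 0.63 ± 0.20 (log2, SE; adjusted p = 0.0448), and 83.8% of its stretches were distinct. The call was lost in 4 of the 6 fits that left out a library (without PND2 replicates 1 or 2, or 4 month replicates 1 or 3). None of the other 3 H1 members tested was called, with log2 fold changes of 0.15 for Hist1h1b, 0.39 for Hist1h1d and 0.53 for Hist1h1e. The testis subtype gene Hist1h1t had at most 1 read in any library, and Hist1h1a had 7 reads in 1 PND2 library and 1 read in 1 4 month library.

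Among H2A genes, 4 of 19 tested (21.1%) were called higher and none lower, against 14.7% and 21.1% of all genes tested. The share called higher was thus near that of all genes. The median log2 fold change was 0.61. The most abundant were the neighbouring copies Hist2h2aa1 and Hist2h2aa2, which carried almost the same reads. Hist2h2aa2 was at 19.7, 21.7 and 28.5 RPKM at PND2 and 44.9, 43.7 and 45.7 at 4 months. It rose by 0.96 ± 0.14 (adjusted p = 0.00239), Hist2h2aa1 by 0.98 ± 0.15 (adjusted p = 0.00246), and the ages did not overlap in either. No stretch of either gene was distinct, so they are read here as 1 measurement. The annotation also places Gm20634 and Gm20633 over Hist2h2aa1 and Gm20632 over Hist2h2aa2.

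Their neighbour Hist2h2ac rose from 2.02, 1.83 and 5.06 to 8.34, 7.03 and 8.77 RPKM (log2 1.55 ± 0.37, adjusted p = 0.0158), a call lost without 4 month replicate 3. The fourth call was Hist1h2al, at 9.77, 9.19 and 14.0 against 19.3, 16.2 and 25.6 RPKM (log2 0.88 ± 0.22, adjusted p = 0.0187), which lies apart from the cluster on chromosome 13. Its stretches could be compared over 89.7% of its bases, and all of these were within 2 mismatches of Hist2h2aa1, Hist2h2aa2 and Hist2h2ac. Reads of these genes can therefore be part of its value, and how large a part was not tested. Its call was lost without PND2 replicate 1, PND2 replicate 2 or 4 month replicate 3.

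The other 13 Hist1 H2A genes tested were not called. They lay between 0.334 and 5.24 RPKM at PND2 and between 1.05 and 6.56 at 4 months, with log2 fold changes of 0.38 to 0.83, adjusted p of 0.152 to 0.629 and at most 21.8% distinct stretches. Among them Hist1h2ad, Hist1h2ag, Hist1h2ah, Hist1h2ao and Hist1h2ap had nearly the same reads, from 34 to 56 at PND2 and from 51 to 63 at 4 months, and overlapped between the ages. Each Hist1 H2A gene also overlaps an annotated gene on the opposite strand, and no source used here says if counting was by strand.

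H2B was the type with the most calls. All 15 of the H2B genes of Hist1 were called higher at 4 months, without overlap of the ages in any, and with a median log2 fold change of 1.55. Hist1h2bc (chr13:23684199-23692488, plus strand, 2 exons) had the highest mean of all members at both ages, although Hist1h1c was above it in PND2 replicate 3. It was at 44.8, 41.7 and 46.5 RPKM at PND2 and at 137, 134 and 159 RPKM at 4 months. The rise was 1.69 ± 0.10 (log2, SE; adjusted p = 6.11e-05), or 3.24-fold between the means, and remained between 1.61 and 1.74 when any library was left out.

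Hist1h2bg was next among H2B genes, at 11.2, 12.6 and 12.4 RPKM at PND2 and 31.99, 29.2 and 43.7 at 4 months (log2 1.51 ± 0.16, adjusted p = 0.000621). Hist1h2bk went from 8.67, 6.95 and 6.61 to 20.5, 17.5 and 25.2 RPKM (log2 1.49 ± 0.17). Hist1h2bl, Hist1h2bn and Hist1h2bh were also among the 10 highest members at 4 months, with means of 20.1 ± 3.14, 15.99 ± 3.02 and 16.2 ± 5.02 RPKM and log2 fold changes of 1.55, 1.45 and 1.61. For Hist1h2bj, Hist1h2bf, Hist1h2bp, Hist1h2bb, Hist1h2bm, Hist1h2bq and Hist1h2br the log2 fold changes were 1.77, 1.40, 1.49, 1.76, 1.92, 1.33 and 1.33. These genes encode nearly the same protein as Hist1h2bc. In the 14 other Hist1 H2B genes, a median of 73.9% of stretches (7.75 to 99.4%) lay within 2 mismatches of Hist1h2bc. Reads of Hist1h2bc can therefore be part of their values, and how large a part was not tested.

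Hist1h2ba encodes the H2B variant of the male germ line. It was at 1.74, 2.73 and 1.16 RPKM at PND2 and 9.48, 5.03 and 8.46 at 4 months. It rose by 2.00 ± 0.36 (adjusted p = 0.00504), and the ages did not overlap. Distinct stretches made up 50.6% of it, and the stretch printed above is one it shares with Hist1h2bc. Its head-to-head partner Hist1h2aa, also a germ line gene, had no read. The 5 male germ cell markers summed to at most 0.328 RPKM at PND2 and 0.400 at 4 months, and Tnp1 was at 0 in every library.

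Exon values separate shared from distinct sequence in Hist1h2bc. Its coding exon (chr13:23684199-23684621, 9.28% distinct) had 627, 523 and 501 reads at PND2 and 1833, 1047 and 1712 at 4 months. The downstream exon (chr13:23692176-23692488) lies wholly beyond the coding part, in the 3′ untranslated region, and every stretch of it was distinct. It had 659, 413 and 501 reads at PND2 and 1943, 1306 and 1670 at 4 months. In RPKM the downstream exon was at 50.6 ± 6.42 against 175 ± 9.07 (SD, n = 3), a ratio of 3.46, and the coding exon at 39.7 ± 1.43 against 120 ± 18.3, a ratio of 3.02. Thus the higher value at 4 months was also present in sequence that no other annotated gene holds, on an exon that follows an intron and carries no stem-loop in the annotated transcript.

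**Figure D4:**
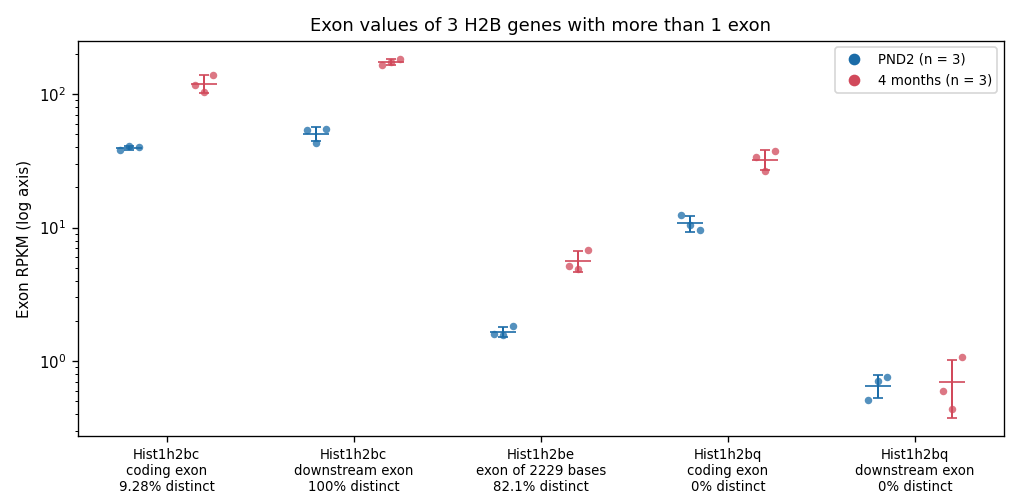
Exon RPKM (log axis) of Hist1h2bc, Hist1h2be and Hist1h2bq in each library, with the mean ± SD (n = 3 per age) and, under each name, the share of 47-base stretches that are distinct. The distinct downstream exon of Hist1h2bc goes from 50.6 to 175 RPKM, whereas the downstream exon of Hist1h2bq stays near 0.66 to 0.70.

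Hist1h2be, of which 80.4% was distinct, rose from 1.11, 0.906 and 1.02 to 3.45, 3.43 and 4.28 RPKM (log2 1.78 ± 0.21, adjusted p = 0.000963). Gm11398 overlaps it on the same strand. The 2229-base exon that holds the Hist1h2be coding part was 82.1% distinct, with 140, 106 and 119 reads at PND2 and 431, 262 and 439 at 4 months (ratio of RPKM 3.39). Where along this exon the reads lay was not tested, so they may lie on its shared coding part. The exons of Hist1h2bq differed more. Its coding exon had 197, 129 and 114 reads at PND2 and 510, 255 and 438 at 4 months (ratio 3.00), and no stretch of it was distinct. Its downstream exon of 1716 bases, shared with Hist1h2br, had 34, 37 and 38 reads at PND2 and 38, 18 and 53 at 4 months (ratio 1.07). The exons were compared as values only.

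Outside Hist1, Hist2h2be is an H2B gene with a long annotated 3′ end, and 96.3% of it was distinct. It was at 10.03, 8.89 and 9.39 RPKM at PND2 and 12.4, 10.6 and 10.1 at 4 months, which do not overlap, but the log2 fold change of 0.22 ± 0.13 was not called (adjusted p = 0.23). Both listings of Hist2h2bb were near the floor, with 8, 0 and 0 against 2, 0 and 0 reads for the protein-coding listing and 4, 3 and 2 against 2, 0 and 0 for the noncoding one. No fold is given for them.

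The H3 genes were low. The 9 Hist1 H3 genes lay between 0.0392 and 1.68 RPKM, none was called, and their log2 fold changes ran from −0.65 to 1.27 with standard errors of 0.30 to 0.69. A change of the size seen in H2B was not called in any of them, with at most 27 reads in a library. All 3 Hist2 H3 genes, in contrast, were called higher. Hist2h3c2 was at 0.981, 1.06 and 1.17 RPKM at PND2 and 4.99, 4.04 and 4.95 at 4 months (log2 2.02 ± 0.20, adjusted p = 0.000454), the largest rise of any member. Hist2h3c1 rose from 1.51, 0.882 and 1.07 to 4.53, 4.89 and 4.499 RPKM (log2 1.95 ± 0.24, adjusted p = 0.00108). Hist2h3b was at 0.473, 0.739 and 1.19 against 2.03, 1.29 and 2.27 RPKM (log2 1.17 ± 0.38, adjusted p = 0.0466), a call lost in 4 of the 6 fits that left out a library (without PND2 replicates 1 or 2, or 4 month replicates 1 or 3). The ages did not overlap in these 3. Distinct stretches made up 35.8% of Hist2h3c2 and none of the other 2, over which Gm20634 and Gm20628 are annotated. Whether Hist1 and Hist2 H3 genes differ in their change was not tested.

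H4 genes went in both directions. Of 13 tested, 7 (53.8%) were called higher and 1 (7.69%) lower, against 14.7% and 21.1% of all genes tested. The highest, Hist1h4h, was at 3.14, 1.94 and 4.26 RPKM at PND2 and 8.89, 8.79 and 8.98 at 4 months (log2 1.55 ± 0.27, adjusted p = 0.00462). Hist1h4a, Hist1h4b, Hist1h4c, Hist1h4j and Hist1h4k rose by 1.19, 1.30, 1.72, 1.37 and 1.86, from means of at most 1.02 RPKM to means of 1.56 to 3.55. Hist1h4b kept its call without PND2 replicate 1 or 3 and in no other fit that left out a library, Hist1h4j lost it without 4 month replicate 1 and Hist1h4k without 4 month replicate 3. Hist2h4, 95.6% distinct, was at 0.252, 0.0201 and 0.126 against 0.361, 0.696 and 0.593 RPKM (log2 1.58 ± 0.48, adjusted p = 0.0387), and its call was lost without PND2 replicate 2 or 3 and without 4 month replicate 2 or 3.

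Hist1h4d (chr13:23581598-23581990) fell by 2.03 ± 0.54 (adjusted p = 0.0242). It had 23, 5 and 24 reads at PND2 and 3, 2 and 2 at 4 months, and the ages did not overlap. Summed over libraries and scaled by depth, the 52 reads at PND2 were 6.78 times the 7 at 4 months (exact 95% interval 3.07 to 17.7, for counting error only). Hist1h4d was given an interval because its reads at 4 months were few, and the interval takes each read as counted once. It does not allow for either of these, or for the spread between libraries. The call of Hist1h4d was lost without PND2 replicates 1 or 3 and without any one of the 4 month replicates, so it rests on few reads. Hist1h4i, next in level among H4 genes at PND2, was at 3.10, 2.43 and 2.44 against 2.14, 2.31 and 1.38 RPKM. The ages did not overlap, but the log2 fold change of −0.46 ± 0.26 was not called (adjusted p = 0.208).

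No member of Hist3 or Hist4 was called higher. Hist3h2ba (chr11:58948920-58949533) was at 5.14, 5.71 and 4.73 RPKM at PND2 and at 1.66, 0.616 and 1.18 at 4 months. It fell by 2.17 ± 0.34 (log2, SE; adjusted p = 0.00285), or 4.51-fold between the means, with 85 to 123 reads against 9 to 38. No library left out ended this call, and Hist3h2ba then fell by 1.81 to 2.46. Hist3h2a was at 14.9, 13.6 and 18.2 against 11.4, 10.4 and 12.99 RPKM. The ages did not overlap, but the log2 fold change of −0.42 ± 0.15 was not called (adjusted p = 0.0651), and Trim17 overlaps the gene on the same strand. The pseudogene Hist3h2bb-ps had at most 10 reads, and Hist4h4, an H4 gene alone on chromosome 6, was at 0.107, 0.343 and 0.442 against 0.168, 0.147 and 0.0483 RPKM, which overlap.

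Members were also split by how much of their sequence is distinct. Of the 17 members with at least 50% distinct stretches, a limit chosen after the values were seen, 13 were tested. Of these, 5 (38.5%) were called higher (Hist1h1c, Hist1h2ba, Hist1h2be, Hist1h4j and Hist2h4), 1 (7.69%) lower (Hist3h2ba) and 7 were not called. The shares over all genes tested were 14.7% and 21.1%. Hist1h1c, Hist1h4j and Hist2h4 lost their calls in fits named above. Distinct stretches are a share of sequence, not of reads. The median log2 fold change of the 13 was 0.39, against 0.90 in the 53 tested with fewer distinct stretches. Of the 32 called members, 26 had under 50% distinct stretches.

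Of 68 other genes of histone supply in 6 lists, 48 were called lower and 1 higher, against 21.1% and 14.7% of all genes tested. S phase genes of the replication machinery and of nucleotide supply summed to 204, 273 and 251 RPKM at PND2 and 116, 108 and 105 at 4 months, and 17 of 18 were called lower and none higher. Rrm2, a subunit of ribonucleotide reductase, went from 13.9, 16.7 and 11.4 to 1.64, 1.68 and 1.23 RPKM (log2 −3.12 ± 0.21, adjusted p = 9.49e-05). Mcm5, of the replicative helicase, fell by 2.25, and Pcna, the sliding clamp, and Mcm6 by 0.49 each.

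**Figure D5:**
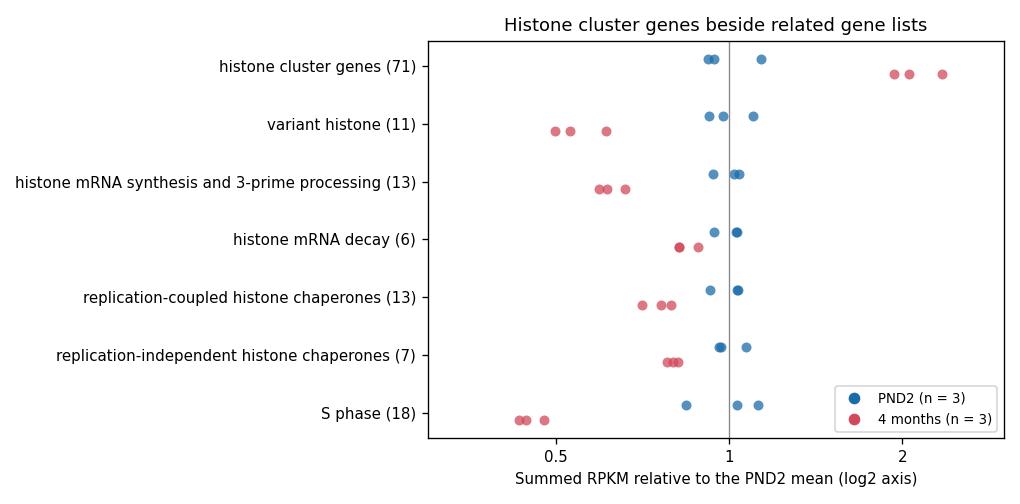
Summed RPKM in each library relative to the mean of the PND2 libraries (log2 axis) for the 71 histone cluster genes and for 6 related lists, with the number of genes in brackets. The histone cluster genes lie above 1 in all 3 libraries at 4 months (ratio of means 2.11), and all 6 lists lie below it, from 0.451 for S phase to 0.840 for histone mRNA decay.

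Of 13 genes for histone gene transcription and 3′ end processing, 10 were called lower and none higher (median −0.57). Cyclin E1 gene Ccne1, whose kinase acts on the histone gene activator NPAT, was at 2.81, 2.78 and 2.71 RPKM at PND2 and 0.362, 0.331 and 0.480 at 4 months (log2 −2.56 ± 0.24), and its kinase gene Cdk2 fell by 1.72. Slbp, which encodes the stem-loop binding protein, fell by 0.50 ± 0.13 (adjusted p = 0.023), and Cpsf3, the endonuclease of the processing complex, by 0.43. Among 6 genes for histone mRNA decay, 2 were called lower and 1 higher, counts too small to set apart from the shares over all genes. The uridylyltransferase genes Zcchc11 and Zcchc6 fell by 1.04 and 0.31. Upf1, a helicase used in histone mRNA decay, was at 30.9, 33.9 and 31.0 against 38.2, 37.9 and 42.9 RPKM (log2 0.31 ± 0.09, adjusted p = 0.0387), a call lost in all 6 fits that left out a library. Exosc10 was not called (−0.46 ± 0.17).

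Chaperones that load new histones behind the replication fork were called lower in 8 of 13 genes and higher in none (median −0.40). Chaf1b, of the CAF-1 complex, fell by 2.93 and Asf1b by 1.89, while the 2 most abundant, Nap1l4 and Rbbp7, had log2 fold changes of −0.36 (not called) and −0.35 (called). Of 7 chaperones that act outside replication, 3 were called lower, namely Atrx (−0.69), Hira (−0.50) and Hjurp (−0.44), and Anp32e was not called (−0.13). Variant histone genes were called lower in 8 of 11 and higher in none (median −0.77). H3f3b, a source of H3.3, fell from 249, 276 and 336 to 196, 141 and 153 RPKM (log2 −0.82 ± 0.16), and H1f0, the replacement linker histone, from 177, 248 and 285 to 89.98, 66.5 and 66.5 (log2 −1.66 ± 0.20). H1fx fell by 1.84. On the scale of summed RPKM the 11 variants, at 894 ± 81.4 against 489 ± 52.7, stood above the 71 cluster genes at PND2 and below them at 4 months. These sums are not alike as measures. Cluster transcripts without a poly(A) tail may be counted only in part, and near copies in the clusters can share reads.

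The make-up of the libraries also differed with age. Summed macrophage markers were at 204 to 259 RPKM at PND2 and 415 to 534 at 4 months (5 of 7 called higher), and adipocyte markers at 87.4 to 174 and 271 to 615 (6 of 7 called higher). Cardiomyocyte markers were called lower in 4 of 8 and valve endothelial markers in 7 of 7. Valve interstitial markers were called lower in 5 of 8 and higher in 2, and no erythroid marker was called, at 1865 to 2599 against 750 to 2158 RPKM over 7 of 8 genes found. Their part in the histone values was not tested. In such bulk RNA, a change in how many cells of a type there are and a change in RNA per cell cannot be told apart.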

How the data were processed

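RNA was measured in 6 libraries of pooled aortic valves, 3 at PND2 and 3 at 4 months. RPKM values were deposited for genes and for exons. The authors prepared libraries from total RNA with a kit they name TruSeq Stranded Total mRNA, aligned reads with TopHat2 2.1.0 to mm10, and counted reads over genes and exons in R 3.2.2. The kit is an mRNA kit by its name, and kits of this kind capture RNA by its poly(A) tail, but the capture step itself is not described. Whether counting used strand is not given in the sources used here. Samples were grouped by the ages in the labels. Nothing says that replicate numbers pair libraries.

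Testing took genes that reached 0.1 RPKM in 3 or more libraries and was done on log2(RPKM + 0.1) with limma 3.58.1 (R 4.3.3, empirical Bayes with a trend, 2-sided, Benjamini-Hochberg adjustment over all tested genes), with calls at an adjusted p under 0.05. RPKM times length and library total gave whole reads within 0.001, and these are the reads quoted. They were used in a voom fit as an alternative. Sequence steps used Python 3.11.15, numpy 2.4.6 and pandas 2.3.3, and figures matplotlib 3.10.9. The other alternatives were the pseudocount, the filter, the trend, median scaling, a per-gene unequal-variance test, the replicate block, near-identical members counted once, and leaving out each library.

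Members and gene lists were chosen with earlier results of these data known. Named members are the 10 highest at each age, all called, those with reads at 1 age and at most 3 in every library of the other, and near-identical ones. In each related list they are the 2 highest, the 2 largest falls and the 2 largest rises. Slbp, Hist1h4i, Hist4h4, Hist1h1t, Hist3h2bb-ps and the remaining H1 genes were named after their values were seen. Counting intervals and read numbers cover counting error only. Since each library pools animals, p-values measure the spread between pools.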

Additional observations from a re-analysis of the deposited data

How the results depend on the processing

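The per-gene unequal-variance test called 12 histone cluster genes higher and 0 lower (24 and 1 at an unadjusted p under 0.05, against 31 and 3 in limma and 30 and 3 in voom), and 21 genes of the related lists lower and 0 higher (47 and 1 unadjusted). Over all genes tested, 5.66% were called higher and 7.50% lower by this test. Histone genes called lower numbered 1 with a minimum RPKM of 1 (against 25.4% of all genes tested) and 1 in voom on the recovered reads (against 21.6%), and 1 to 2 when each library was left out. Histone genes called higher then numbered 23 to 30 and genes of the related lists called lower 36 to 51. In these fits 10.4 to 13.8% of all genes tested were called higher and 13.5 to 20.3% lower. The one gene of the related lists called higher, Upf1, was lost without a trend (0 called) and without any library (0 to 0). The cause of these differences was not tested. With the replicate block, 26 histone genes were called higher and 2 lower, and 38 genes of the related lists lower and 0 higher, against 11.6% higher and 16.1% lower of all genes tested. Deviations of libraries with the same number correlated at 0.0439, −0.0608 and −0.160, so the numbers were not taken as pairs. Over the named genes, 522 values kept their direction and side of the threshold under an alternative, 61 kept the direction and lost the call, in 20 genes, and 0 reversed. The unequal-variance test, the fit without a trend and the replicate block leave the fold change itself unchanged, so they could not reverse a direction. Many named genes were also chosen because they were called, which makes a reversal less likely. The ratio of summed RPKM over all members was 2.30 under median scaling and 2.15 with near-identical members counted once, and no ratio by type or cluster changed direction. Counting once lowered the levels themselves, at 4 months from 631 to 567 over all members, from 179 to 122 in H2A and from 117 to 76.6 in Hist2. Most H3 and several H4 genes had few reads, which limits what could be called in them.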
